A study of Mus musculus with 15 samples.

Results

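The genes described here are 44 genes of DNA replication and mitosis, 19 of replication and 25 of mitosis, each measured by 1 of the 25206 probe sets of the array. They were chosen by symbol: a probe set belongs to a member when the Entrez gene number in its name maps to that symbol, and all 44 members were found. The study followed mouse induced pluripotent stem cells (iPSC) as they were directed towards smooth muscle, and measured total RNA on 15 Affymetrix Mouse Gene 2.0 ST arrays, 3 per group. The 5 groups were undifferentiated iPSC at day 0, Kdr+ (Flk-1+) sorted mesodermal progenitors at day 5, Acta2hrGFP+ and Acta2hrGFP- sorted cells at day 13, and primary Acta2hrGFP+ smooth muscle cells of the mouse aorta, which the study used as its positive control. All 12 cultured samples came from 1 iPSC reporter line, in which a GFP marks transcription from the smooth muscle actin gene Acta2, so they are samples of 1 genetic background. Strain, animal age and any pooling of aortas are not given in the sources used here. The study calls the samples of a group biological triplicates. The cultured samples carry the numbers 3, 5 and 6 in their titles, and the aortic samples 1, 2 and 3.

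Cells copy their DNA in S phase and divide it in M phase, and the genes of the 2 phases are transcribed in consecutive waves. For replication, the origin recognition complex, Cdc6 and Cdt1 load the Mcm2 to Mcm7 helicase onto origins, GINS and Mcm10 help to activate it, and primase, polymerase and the PCNA clamp then synthesise DNA from deoxynucleotides made by ribonucleotide reductase and thymidylate synthase. For mitosis, Cdk1 with cyclins A and B, the Polo and Aurora kinases, the kinetochore and the spindle checkpoint carry chromosomes through division. E2F factors are known to control the first wave, and the MuvB complex with B-Myb and Foxm1 the second, through an element named the cell cycle homology region (CHR) that often lies near CCAAT boxes. Differentiated smooth muscle of the adult artery is known to divide rarely.

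Promoters are shown because all 44 members of both lists were lower in day 13 cells than at day 5, and the letters of the promoters differ between the lists. RefSeq promoters, from 250 bases before to 50 bases after the gene start on the mouse build GRCm38.p6, were found for 35 of the 44 members, 15 of replication and 20 of mitosis. Both strands were searched for 3 kinds of motif: an E2F type motif (TTTGGCG and its variants with the letters TTTCCCG, those with TTTGCCG and those with TTTCGCG, overlapping matches merged), the CHR (TTTGAA) and the CCAAT box (CCAAT). The E2F type motif was in 8 of the 15 replication promoters (53.3%), in 2 of the 20 mitotic promoters (10.0%, Cdk1 and Birc5) and in 7.65% of the 27018 genes of the table. The CHR showed the other order, with 1 of 15 replication promoters (6.67%, Mcm2), 15 of 20 mitotic promoters (75.0%) and 20.2% of all genes. The CCAAT box was common in both lists, in 12 of 15 (80.0%) and 17 of 20 (85.0%), against 41.1% of all genes. A CHR and a CCAAT box stood in the same promoter in 14 of 20 mitotic members (70.0%), in 1 of 15 replication members and in 7.97% of all genes. A match is a stretch of letters and not a measured binding site. Among the 35 members with a promoter in the table, those of the 3 replication and the 3 mitotic members with the largest difference between day 13 GFP+ and day 5 cells follow (Gins1 and Pole, which are not in the table, differed by more than Mcm10), and that of Ccnb2, which was added after its values were seen. Each is printed 5′ to 3′ on the strand of its gene, with every match to any of the 3 motifs in capitals.
Cdc6 (chr11:98907901-98908200, plus strand): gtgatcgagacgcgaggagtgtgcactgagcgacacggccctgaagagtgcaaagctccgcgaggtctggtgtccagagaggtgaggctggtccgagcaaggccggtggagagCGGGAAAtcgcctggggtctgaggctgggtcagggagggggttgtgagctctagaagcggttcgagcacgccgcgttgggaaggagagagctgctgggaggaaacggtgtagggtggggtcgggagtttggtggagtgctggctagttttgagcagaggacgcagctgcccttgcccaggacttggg
Mcm5 (chr8:75109259-75109558, plus strand): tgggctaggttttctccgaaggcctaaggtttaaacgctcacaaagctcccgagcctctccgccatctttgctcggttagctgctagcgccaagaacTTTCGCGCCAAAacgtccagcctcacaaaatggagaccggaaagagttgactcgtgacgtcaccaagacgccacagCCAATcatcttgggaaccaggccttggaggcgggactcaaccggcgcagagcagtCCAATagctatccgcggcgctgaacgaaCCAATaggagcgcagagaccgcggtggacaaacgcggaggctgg
Mcm10 (chr2:5012742-5013041, minus strand): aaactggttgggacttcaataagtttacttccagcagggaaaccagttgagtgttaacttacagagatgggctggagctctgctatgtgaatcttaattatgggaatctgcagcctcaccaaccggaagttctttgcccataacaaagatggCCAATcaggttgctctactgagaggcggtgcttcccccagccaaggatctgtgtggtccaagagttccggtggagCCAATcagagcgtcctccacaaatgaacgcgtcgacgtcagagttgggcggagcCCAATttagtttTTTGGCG
Bub1 (chr2:127831810-127832109, minus strand): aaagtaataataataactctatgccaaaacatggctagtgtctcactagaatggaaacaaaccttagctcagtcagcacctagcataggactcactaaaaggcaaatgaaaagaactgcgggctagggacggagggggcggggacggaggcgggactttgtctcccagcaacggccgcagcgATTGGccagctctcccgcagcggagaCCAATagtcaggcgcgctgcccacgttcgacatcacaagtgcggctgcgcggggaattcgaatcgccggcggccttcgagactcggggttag
Ndc80 (chr17:71526808-71527107, minus strand): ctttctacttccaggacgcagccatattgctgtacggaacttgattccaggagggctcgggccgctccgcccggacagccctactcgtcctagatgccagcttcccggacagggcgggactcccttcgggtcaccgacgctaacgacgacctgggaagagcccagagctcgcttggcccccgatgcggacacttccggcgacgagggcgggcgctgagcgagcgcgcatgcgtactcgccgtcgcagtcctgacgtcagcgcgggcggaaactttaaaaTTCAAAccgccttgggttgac
Nuf2 (chr1:169531415-169531714, minus strand): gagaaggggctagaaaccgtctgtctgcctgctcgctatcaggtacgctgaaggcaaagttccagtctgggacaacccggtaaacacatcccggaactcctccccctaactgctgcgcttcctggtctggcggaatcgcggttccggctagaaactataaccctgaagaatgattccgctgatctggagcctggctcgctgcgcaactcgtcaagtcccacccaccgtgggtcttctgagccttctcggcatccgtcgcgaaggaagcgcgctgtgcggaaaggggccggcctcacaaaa
Ccnb2 (chr9:70421505-70421804, minus strand): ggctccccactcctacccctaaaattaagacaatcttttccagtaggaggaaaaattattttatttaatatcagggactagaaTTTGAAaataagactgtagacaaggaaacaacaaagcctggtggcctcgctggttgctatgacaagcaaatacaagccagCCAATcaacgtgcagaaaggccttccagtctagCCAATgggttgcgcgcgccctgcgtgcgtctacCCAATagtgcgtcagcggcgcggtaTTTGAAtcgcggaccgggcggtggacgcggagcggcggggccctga

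In these sequences the Cdc6 promoter holds 1 E2F type match and neither of the other motifs, Mcm5 holds 1 E2F type match and 3 CCAAT boxes, and in Mcm10 the E2F type match ends the window. Bub1 has CCAAT boxes without a CHR, Ndc80 has a CHR without a CCAAT box, and Nuf2 has no match in this window. Ccnb2, the cyclin B2 gene, holds 2 CHR matches and 3 CCAAT boxes. Among the 20 CHR matches of the mitotic members the median distance of the centre from the gene start was -7.5 bases, and among their 36 CCAAT boxes it was -65.5 bases, where negative values lie before the start. These counts take Prc1 from 2 promoters, with the CHR at -2.5 and -27.5 and the CCAAT box at -35 and -60. The matches of the 2 Prc1 promoters may be the same sites. The 12 E2F type matches of the replication members had a median of -11.5 bases and ranged widely, between -161 and 46 bases.

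**Figure D1:**
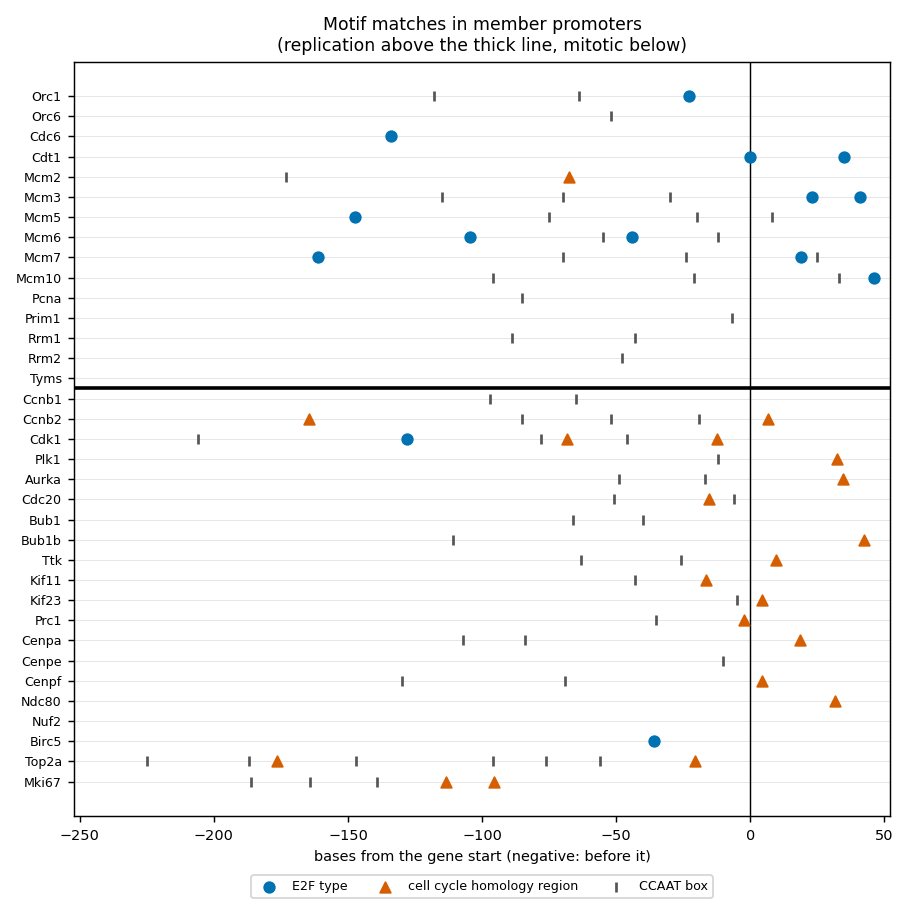
Positions of motif matches in the promoters of 35 members, with only the first listed promoter of each gene drawn. Each row is a member and the horizontal axis gives the distance of the match's centre from the gene start in bases; circles are E2F type matches, triangles the CHR and bars CCAAT boxes. E2F type matches lie in 8 of 15 replication rows and CHR matches in 15 of 20 mitotic rows.

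The array values are on a log2 scale, so that a difference of 1 is a doubling of signal, and no array carries detection calls. The medians of the 15 samples over all probe sets lay between 4.08 and 4.29. Markers went with the labels of the day 0, day 5 and day 13 GFP+ groups (limma, adjusted p under 0.05). All 10 pluripotency markers were lower at day 5 than at day 0, and all 8 early mesoderm markers were higher. All 10 smooth muscle markers were higher in day 13 GFP+ than in day 5 cells. Acta2 was also high in GFP- cells, with 10.2, 11.0 and 10.9 in samples 3, 5 and 6, against 11.2, 11.5 and 11.3 in GFP+ cells. Most of the 10 smooth muscle markers did not pass between the day 13 sorts, and most were lower in GFP+ than in aortic cells, as given below. No 2 samples held the same values. In samples of bulk RNA such as these, fewer cycling cells and less RNA per cycling cell cannot be told apart.

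All 44 members had the same order of group means in the later groups: aortic cells were lowest, then day 13 GFP+ cells, then day 13 GFP- cells, and both earlier groups were above them. Of all probe sets on the array, 9.04% had this order. Between the earlier groups there was no common order, and 22 members had their highest mean at day 5 and 22 at day 0. Neighbours in the order did not always separate. Day 13 GFP- samples were all below the day 5 samples in 44 of 44 members (21.4% of all probe sets), and day 13 GFP+ samples were all below the GFP- samples in 38 of 44 (9.96% of all probe sets). The exceptions between the day 13 sorts were Rrm1, Aurkb, Cdk1, Ttk, Kif11 and Nuf2. Day 13 GFP+ samples were all above the aortic samples in 40 of 44 (22.1% of all probe sets), and the 4 that overlapped were replication genes, Mcm4, Orc1, Pcna and Prim1.

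**Figure D2:**
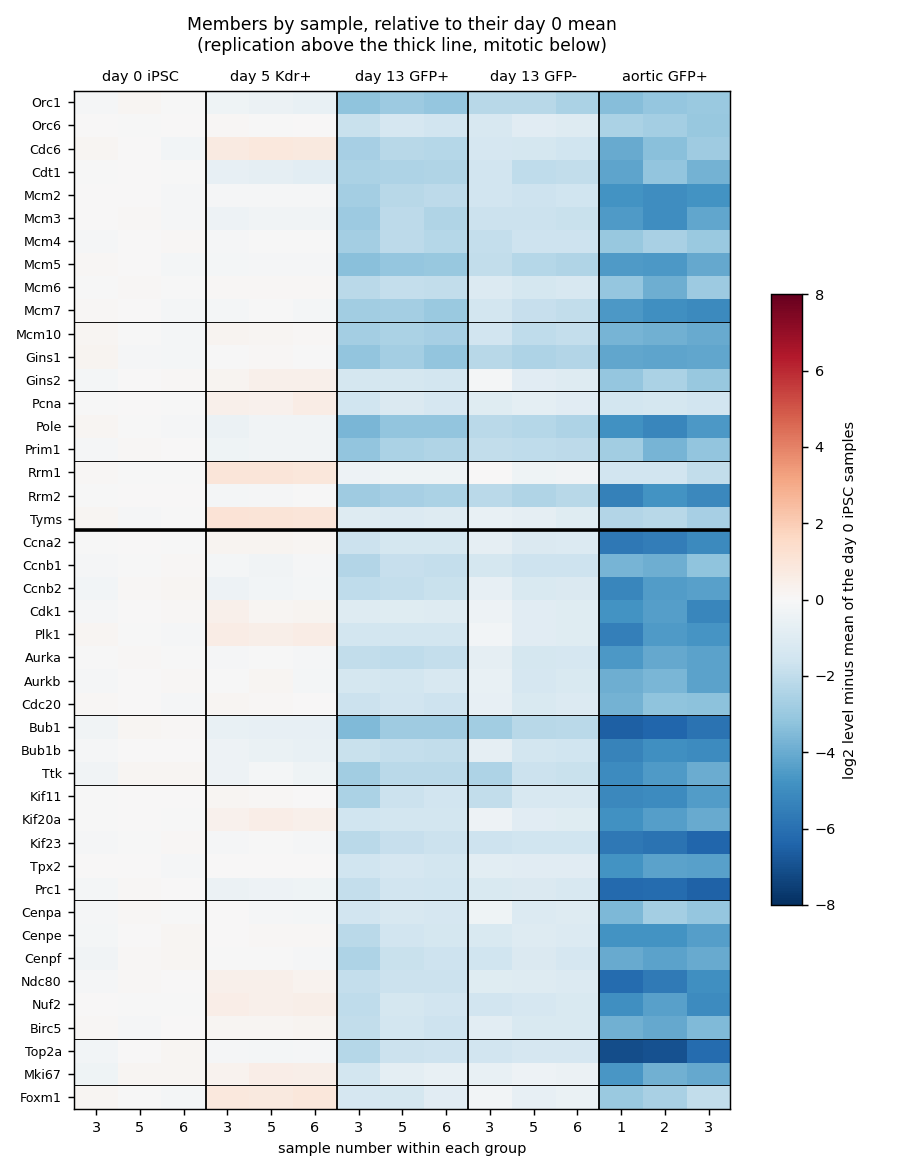
Level of each member in each of the 15 samples, as log2 level minus the member's mean over the day 0 iPSC samples. Rows are members, replication above the thick line and mitotic below; columns are samples in 5 groups. Columns of day 13 and the aorta are blue in nearly all rows, and the mitotic rows are darkest in the aorta.

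The first comparison asked how the members stood in mesodermal progenitors relative to the pluripotent cells they came from. Most members showed no change that passed the test. Among the replication genes 4 were higher at day 5 (Cdc6, Pcna, Rrm1 and Tyms), 2 were lower (Orc1 and Cdt1) and 13 did not pass, with a median log2 difference of -0.05. Among the mitotic genes 1 was higher (Foxm1), 3 were lower (Bub1, Bub1b and Prc1) and 21 did not pass, with a median of 0.05. Over all probe sets 28.8% passed in either direction and the median was -0.01, so the members' 10 of 44 was not above the background. The test here and below was limma's moderated test over all 25206 probe sets, with Benjamini-Hochberg adjustment and a threshold of 0.05. With each array centred on its median, the calls of Orc1, Bub1, Bub1b and Prc1 were lost and those of Plk1, Kif20a and Nuf2 were gained, and with cyclic loess that of Pcna was lost.

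Of the 4 replication genes that were higher, Tyms and Rrm1 belong to the supply of deoxynucleotides. Tyms, thymidylate synthase, had log2 levels of 8.79, 8.70 and 8.65 in day 5 samples 3, 5 and 6, against 7.86, 7.57 and 7.65 in day 0 samples 3, 5 and 6, and was 2.03-fold higher (log2 difference 1.02, SE 0.14, adjusted p = 2.46e-05, limma). Rrm1, the large subunit of ribonucleotide reductase, had 9.44, 9.46 and 9.39 at day 5, against 8.54, 8.44 and 8.41 at day 0, and was 1.95-fold higher (0.97, SE 0.14, adjusted p = 4.87e-05, limma). In both genes every day 5 sample lay above every day 0 sample. Rrm2, which encodes the small subunit of the same enzyme, showed a log2 difference of -0.08 that did not pass. Cdc6, the loader of the helicase, was 1.74-fold higher and its partner Cdt1 was 1.66-fold lower (adjusted p = 0.0109 and 0.0101, limma). Gins1, a GINS subunit, was the replication member with the smallest difference, with 6.90, 6.99 and 6.88 at day 5, against 7.14, 6.83 and 6.78 at day 0, and the groups overlapped.

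Among the mitotic genes Foxm1, the forkhead factor of the mitotic wave, had 7.49, 7.42 and 7.53 at day 5, against 6.82, 6.62 and 6.49 at day 0, and was 1.78-fold higher (0.83, SE 0.21, adjusted p = 0.00595, limma). Its 3 day 5 values lay above the 3 day 0 values. Bub1, a spindle checkpoint kinase, had 8.30, 8.25 and 8.20 at day 5, against 8.62, 9.03 and 9.01 at day 0, and was 1.55-fold lower (-0.64, SE 0.22, adjusted p = 0.039, limma). All day 5 values of Bub1 lay below the day 0 values. Aurkb, the kinase of the chromosomal passenger complex, had 8.04, 8.19 and 7.90 at day 5, against 7.94, 8.09 and 8.11 at day 0, with overlapping groups and a difference of -0.01. The other genes of the pathways also split: of 45 further replication genes 9 were higher and 8 lower, with Rfc3, a clamp loader subunit, at 1.07 and Pola1, the catalytic subunit of polymerase alpha, at -1.13. Of 55 further mitotic genes 10 were higher and 11 lower. Of 31 cell cycle regulators 12 were higher and 10 lower, with a median of 0.26. Mybl2, which encodes B-Myb, fell by 2.49 and Rb1, the retinoblastoma protein, fell by 2.06 on the log2 scale, while Myc rose by 1.40 and E2f3 by 1.30. Of 12 CDK inhibitors and G1 cyclins with their kinases 5 were higher, among them Ccnd2 (2.70) and Cdk6 (1.63), and 2 were lower, Ccnd3 (-0.94) and Cdkn2a (-0.78). The 4 mitotic calls were 1, 1, 1, 1 and 2 when day 0 sample 5, day 0 sample 6, day 5 sample 3, day 5 sample 5 or day 5 sample 6 was left out. Immediate early and dissociation stress genes were lower at day 5 in 10 of 11, with log2 summed levels of 8.76 to 9.08 at day 5, against 10.7 to 11.2 at day 0. Here and below, levels were summed before the log2 was taken, so the highest genes of a list weigh most. Leukocyte markers were lower in 5 of 8, with 6.77 to 6.91 at day 5, against 9.64 to 9.97 at day 0. The part of both lists in the members' differences was not tested.

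The second comparison set day 13 GFP+ cells against the day 5 progenitors. All 19 replication and all 25 mitotic members were lower in GFP+ cells and each by at least 2-fold. At the adjusted threshold 16.9% of all probe sets were lower, and 7.61% were lower by at least 2-fold. The median log2 difference was -2.31 over the replication members and -1.82 over the mitotic members, against -0.00 over all probe sets. In all 44 members the 3 GFP+ samples lay below the 3 day 5 samples, a separation found for 24.1% of all probe sets in this direction.

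Within replication, both large and small differences were found among the genes that prepare and fire origins, and no test compared the steps. The median was -2.28 over the 10 licensing and helicase genes, -2.78 over the 3 firing genes, -2.39 over the 3 synthesis genes and -2.06 over the 3 deoxynucleotide genes. Cdc6 had 4.36, 4.79 and 4.70 in GFP+ samples 3, 5 and 6, against 7.72, 7.84 and 7.80 in day 5 samples 3, 5 and 6, and was 9.01-fold lower (-3.17, SE 0.22, adjusted p = 1.89e-08, limma). Mcm5, a subunit of the helicase ring, had 5.63, 5.86 and 5.94 in GFP+ cells, against 8.81, 8.90 and 8.87 at day 5, and was 8.30-fold lower (-3.05, SE 0.15, adjusted p = 5.69e-10, limma). The gap between the groups was several times the spread within either group. The other 5 helicase subunits, Mcm2, Mcm3, Mcm4, Mcm6 and Mcm7, differed by between -2.12 and -2.71. Orc1, the large subunit of the origin recognition complex, fell by 2.62, Orc6, its smallest subunit, by 1.59 and Cdt1 by 1.74. Of the firing genes Gins1 fell by 3.01, Mcm10 by 2.78 and Gins2 by 1.79. For DNA synthesis, Pole, the catalytic subunit of polymerase epsilon, fell by 3.00, the primase gene Prim1 by 2.39 and Pcna by 1.82. Rrm1 had the smallest difference of the list, with 8.08, 8.13 and 8.09 in GFP+ cells, against 9.44, 9.46 and 9.39 at day 5, and was 2.51-fold lower (-1.33, SE 0.14, adjusted p = 1.40e-06, limma). It too did not overlap, while the small subunit gene Rrm2 fell by 2.60 and Tyms by 2.06.

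The mitotic members fell in a narrower range. Bub1 had 5.33, 6.06 and 6.06 in GFP+ cells, against 8.30, 8.25 and 8.20 at day 5, and was 5.39-fold lower (-2.43, SE 0.22, adjusted p = 3.26e-07, limma). GFP+ sample 3 was the lowest of the 3. Ndc80, a kinetochore protein that binds microtubules, had 6.50, 6.67 and 6.69 in GFP+ cells, against 8.84, 8.80 and 8.69 at day 5, and was 4.45-fold lower (-2.15, SE 0.21, adjusted p = 9.01e-07, limma). Its complex partner Nuf2 fell by 2.14, close to Ndc80, the kinetochore motor Cenpe by 1.74, and Cenpa, the centromeric histone, by 1.32. Among the kinases and cyclins Plk1 fell by 2.02, Aurka by 1.87, Aurkb by 1.37, Ccnb1 by 1.82, Ccna2 by 1.70, Ccnb2 by 1.67 and the anaphase activator Cdc20 by 1.73. Cdk1, the catalytic partner of these cyclins, had the smallest difference of the list, with 7.10, 7.14 and 7.05 in GFP+ cells, against 8.50, 8.25 and 8.32 at day 5, and was 2.39-fold lower (-1.26, SE 0.18, adjusted p = 5.02e-05, limma). No GFP+ value of Cdk1 reached a day 5 value. The spindle motors Kif11, Kif20a and Kif23 fell by between 1.84 and 2.00, and Foxm1 by 2.05. Top2a, the topoisomerase that untangles chromosomes, fell by 1.75 and Mki67, the gene of the Ki-67 antigen, by 1.37.

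**Figure D3:**
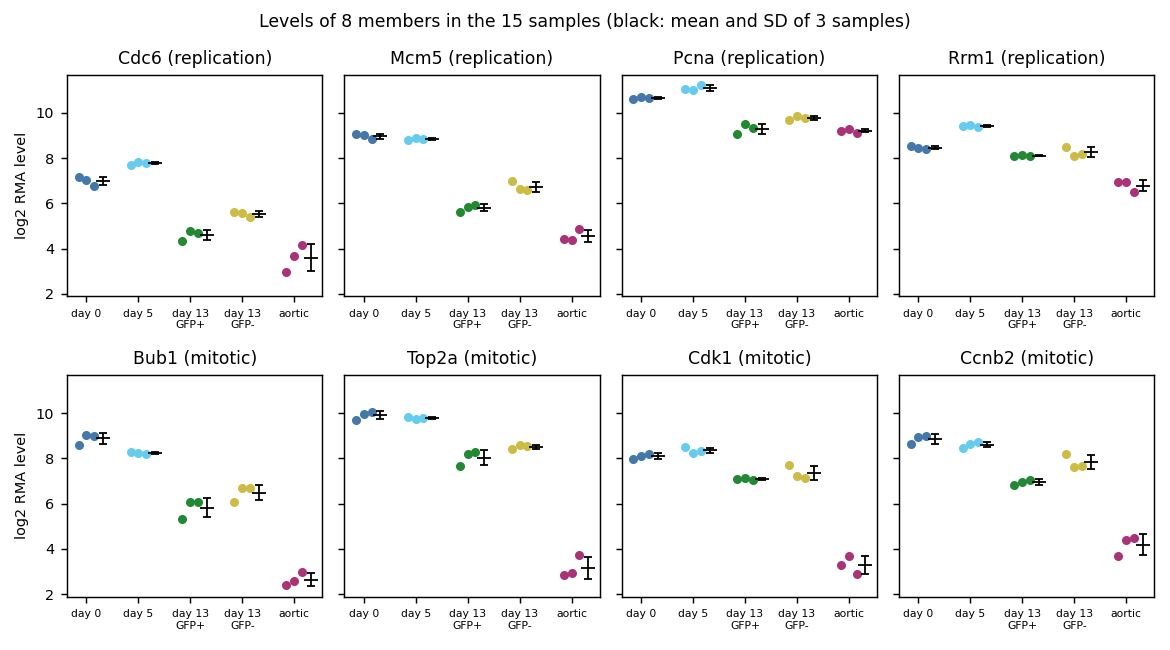
Log2 RMA level of 8 members in each of the 15 samples, with mean and SD of 3 samples beside the points. The 8 panels share 1 vertical axis; Cdc6 and Mcm5 have the wide step between day 5 and day 13, Rrm1 a narrow one, Pcna overlaps between GFP+ and aortic cells, and Bub1, Top2a, Cdk1 and Ccnb2 drop furthest in the aorta.

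The rest of the pathways followed in most genes. Of the 45 further replication genes 44 were lower in GFP+ cells, among them Wdhd1, a replisome protein (-2.59). Of the 55 further mitotic genes 50 were lower, led by Cenpn (-2.70) and Melk (-2.62), and none was higher. Of 31 cell cycle regulators 24 were lower, led by Myc (-2.82) and Mybl2 (-2.79), and 3 were higher, among them the pocket protein genes Rbl2 (2.38) and Rb1 (1.38). Of the 12 CDK inhibitors and G1 cyclins with their kinases 6 were higher, led by the inhibitors Cdkn1a (2.03) and Cdkn2b (1.97), and 2 were lower, Ccnd1 (-1.54) and Cdk4 (-0.76). Immediate early and dissociation stress genes moved as well: 10 of 11 were higher in GFP+ cells than at day 5, with log2 summed levels of 10.2 to 10.9 in GFP+ cells, against 8.76 to 9.08 at day 5. Cardiac muscle markers were higher in 3 of 8, with 9.70 to 9.92 in GFP+ cells, against 7.55 to 7.58 at day 5. Of these, Tnnt2 alone had 9.52, 9.53 and 9.24 in GFP+ samples 3, 5 and 6. Fibroblast markers were higher in 4 of 8, with 11.4 to 11.9 in GFP+ cells, against 9.07 to 9.40 at day 5. Col1a1 alone had 10.8, 11.2 and 11.4 in the same GFP+ samples. All 8 early mesoderm markers were lower, with a median log2 difference of -3.89. The part of these lists in the members' differences was not tested.

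Day 13 GFP- cells were set against the same day 5 samples, so that these values share their controls with those above. Again 19 of 19 replication and 25 of 25 mitotic members were lower, and 13.9% of all probe sets were. The fall was at least 2-fold in 19 replication and 18 mitotic members, against 4.58% of all probe sets. The median log2 difference was -1.71 over the replication members, -1.20 over the mitotic members and -0.03 over all probe sets.

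Gins1 had 4.69, 4.44 and 4.59 in GFP- samples 3, 5 and 6, against 6.90, 6.99 and 6.88 in day 5 samples 3, 5 and 6, and was 5.10-fold lower (-2.35, SE 0.14, adjusted p = 7.61e-09, limma). Cdc6 had 5.63, 5.57 and 5.40 in GFP- cells, against 7.72, 7.84 and 7.80 at day 5, and was 4.78-fold lower (-2.26, SE 0.22, adjusted p = 1.36e-06, limma). Neither gene had overlapping groups. Gins2, a partner of Gins1 in the same complex, had the smallest difference of the replication list, with 7.20, 6.42 and 6.31 in GFP- cells, against 7.55, 7.72 and 7.73 at day 5 (2.03-fold lower, -1.02, SE 0.20, adjusted p = 0.00117, limma). Its GFP- sample 3 stood apart from the other 2 and close to day 5. Of the mitotic members Nuf2 had 6.48, 6.69 and 6.79 in GFP- cells, against 8.53, 8.42 and 8.48 at day 5, and was 3.54-fold lower (-1.82, SE 0.18, adjusted p = 1.63e-06, limma). Bub1 had 6.09, 6.68 and 6.70 in GFP- cells, against 8.30, 8.25 and 8.20 at day 5, and was 3.38-fold lower (-1.75, SE 0.22, adjusted p = 1.64e-05, limma). GFP- sample 3 was the lowest of its group in both. Cenpa had 8.10, 7.36 and 7.41 in GFP- cells, against 8.45, 8.30 and 8.26 at day 5, and was 1.64-fold lower (-0.72, SE 0.21, adjusted p = 0.016, limma). Here GFP- sample 3 was the highest of its group, and the call of Cenpa was lost when the arrays were normalized again by quantiles or by cyclic loess, or when GFP- sample 5 or 6 or day 5 sample 3 was left out.

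Of the further genes, 42 of 45 for replication and 49 of 55 for mitosis were lower in GFP- cells, led by Wdhd1 (-2.08) and Ticrr, a helicase activation factor (-1.98), and by Cenpk (-2.19) and Cenpn (-2.05). Zwint, a kinetochore protein, was the 1 gene of these lists that was higher (0.34). Of the regulators 22 of 31 were lower, led by Myc (-2.51) and Fbxo5, an inhibitor of the anaphase promoting complex (-2.01), and Rbl2 (1.75) and Rb1 (1.07) were the 2 that were higher. Of the 12 CDK inhibitors and G1 cyclins with their kinases 5 were higher, led by Cdkn1a (1.76) and Cdkn2b (1.13), and Ccnd1 (-1.81) and Cdk4 (-0.67) were lower. Marker lists moved here too. Endoderm and epithelial markers were higher in 7 of 8, with log2 summed levels of 9.79 to 9.93 in GFP- cells, against 7.67 to 7.82 at day 5. Endothelial markers were higher in 6 of 8, with 8.15 to 8.50 in GFP- cells, against 6.43 to 6.81 at day 5. Cardiac muscle markers were higher in 4 of 8, with 9.32 to 10.1 in GFP- cells, against 7.55 to 7.58 at day 5, and fibroblast markers in 3 of 8, with 10.2 to 11.1 in GFP- cells, against 9.07 to 9.40 at day 5. Stress genes were higher in 10 of 11, with 10.2 to 10.4 in GFP- cells, against 8.76 to 9.08 at day 5, and their part and that of the marker lists in the members' differences was not tested.

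**Figure D4:**
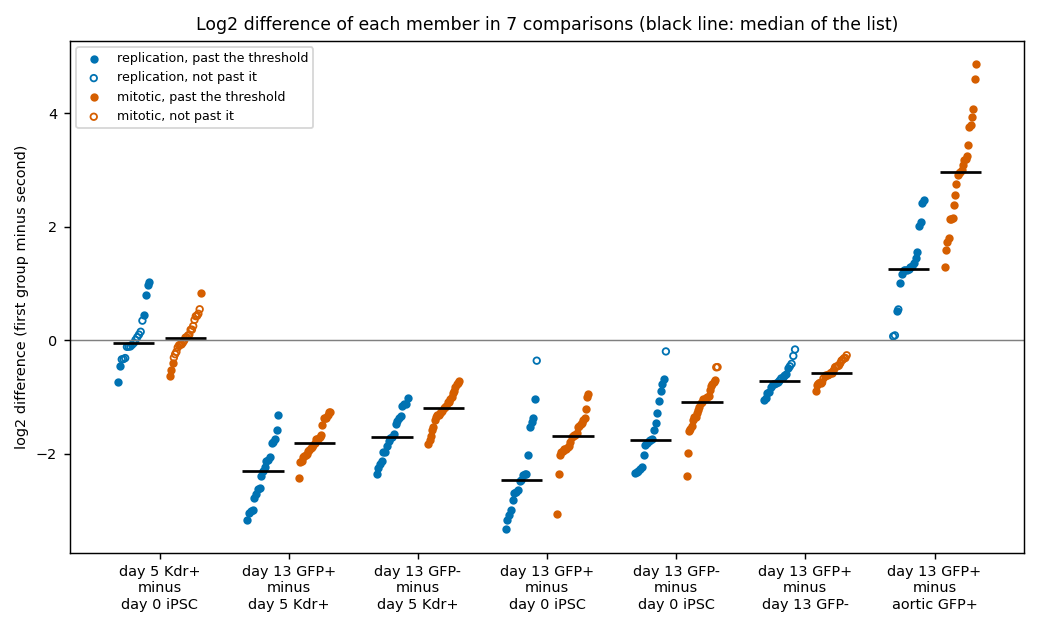
Log2 difference of each of the 44 members in 7 comparisons, on the vertical axis, with the first named group minus the second. Filled points passed the adjusted threshold of 0.05, open points did not, and black lines are list medians. Medians lie at -2.31 and -1.82 for day 13 GFP+ against day 5, and at 1.25 and 2.97 for day 13 GFP+ against the aorta.

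The third comparison was between the 2 sorts of the day 13 cultures. All 44 members had a lower mean in GFP+ than in GFP- cells, against 48.1% of all probe sets. The difference passed the test in 12 of 19 replication and 6 of 25 mitotic members, all lower in GFP+ cells, against 2.52% of all probe sets lower. The median log2 difference was -0.72 over the replication members, -0.57 over the mitotic members and 0.01 over all probe sets. The groups did not overlap in 38 of 44 members, against 9.96% of all probe sets in this direction.

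Of the replication steps, 7 of 10 licensing and helicase genes, all 3 firing genes and 2 of 3 synthesis genes were lower in GFP+ cells, while none of the 3 deoxynucleotide genes passed. Mcm7, a helicase subunit, had 6.79, 6.88 and 6.63 in GFP+ samples 3, 5 and 6, against 8.11, 7.73 and 7.60 in GFP- samples 3, 5 and 6, and was 2.07-fold lower (-1.05, SE 0.15, adjusted p = 8.47e-04, limma). Pole had 4.46, 4.93 and 4.92 in GFP+ cells, against 5.95, 5.80 and 5.64 in GFP- cells, and was 2.04-fold lower (-1.03, SE 0.17, adjusted p = 0.00254, limma). Neither gene overlapped between the sorts. Rrm1 had 8.08, 8.13 and 8.09 in GFP+ cells, against 8.51, 8.12 and 8.17 in GFP- cells, with overlapping values and a difference of -0.16 (SE 0.14, adjusted p = 0.716, limma). The 6 mitotic members that were lower were Ccnb2, Aurka, Cdc20, Kif20a, Tpx2, which targets Aurora A to the spindle, and Birc5, which encodes survivin of the chromosomal passenger complex. Ccnb2, whose promoter with 2 CHR matches is printed above, had 6.81, 6.96 and 7.06 in GFP+ cells, against 8.22, 7.63 and 7.69 in GFP- cells, and was 1.87-fold lower (-0.90, SE 0.21, adjusted p = 0.0187, limma). Aurka, the centrosomal Aurora kinase, had 6.51, 6.47 and 6.58 in GFP+ cells, against 7.74, 7.06 and 7.10 in GFP- cells, and was 1.72-fold lower (-0.78, SE 0.16, adjusted p = 0.0113, limma). GFP- sample 3 was the highest of the 6 day 13 samples for Ccnb2 and Aurka. Cdk1 had 7.10, 7.14 and 7.05 in GFP+ cells, against 7.73, 7.22 and 7.13 in GFP- cells, with overlapping groups and a difference of -0.27 (SE 0.18, adjusted p = 0.617, limma).

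Samples of equal number deviated together in the 2 sorts. Over all probe sets the correlation of their deviations from the group means was 0.597 for the samples numbered 3, 0.403 for those numbered 5 and 0.397 for those numbered 6. GFP- sample 5 with GFP+ sample 6 gave 0.278, and GFP- sample 6 with GFP+ sample 5 gave 0.345. Numbers 5 and 6 were thus only partly told apart, and no label pairs the samples. With the number as a block, 15 replication and 13 mitotic members were lower in a fit of the 12 cultured samples, against 3.28% of all probe sets lower. In a fit of the 6 day 13 samples alone 15 and 11 were, against 4.3%. Taken pair by pair, GFP+ was below GFP- in all 3 pairs in 43 of 44 members, against 20.5% of all probe sets, and the exception was Rrm1 in the pair numbered 5, with 0.01. The pairs differed in size: the median difference over the members was -0.97 in the pair numbered 3, with 44 of 44 lower, -0.42 in the pair numbered 5, with 43 lower, and -0.44 in the pair numbered 6, with 44 lower. In the pair numbered 3 the range ran between -1.48 for Pole and -0.27 for Ttk, another checkpoint kinase.

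**Figure D5:**
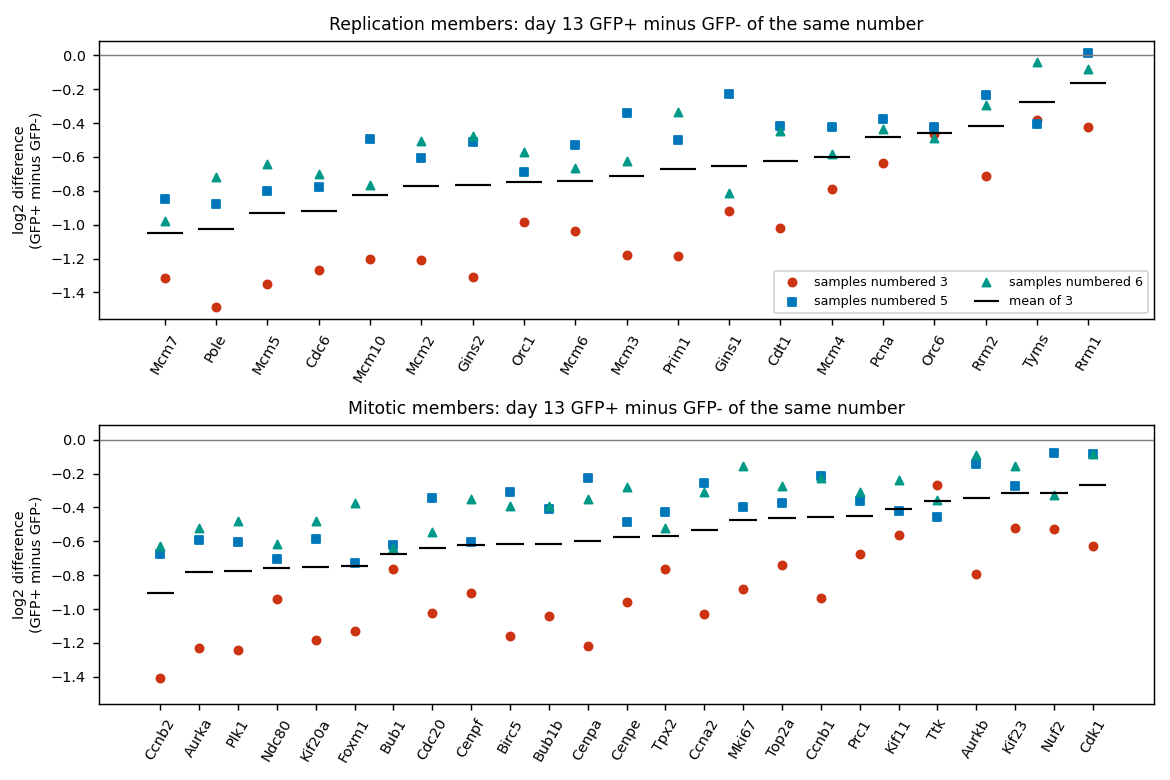
Difference between day 13 GFP+ and GFP- samples of the same number, in log2 units, for each of the 19 replication members (top) and 25 mitotic members (bottom). Circles are samples numbered 3, squares 5, triangles 6 and black lines the mean of 3. Nearly all points lie below 0 and the circles are the lowest in most members.

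The count of calls varied with the samples used. Without both samples numbered 3, which takes 1 sample from each sort, 5 replication and 0 mitotic members passed, and 496 of all probe sets were lower, against 634 with all samples. When only GFP- sample 5 was left out 7 replication members passed, and when only GFP+ sample 3 or 6 was left out 7 or 6 did. The mitotic calls numbered 2 when GFP- sample 3 was left out, and 1, 3 or 2 when GFP+ sample 3, 5 or 6 was. Sample 3 of the GFP+ sort was below both other GFP+ samples in 34 of 44 members, furthest in Kif11 (-0.90 from the mean of the other two), Cenpf (-0.79) and Mki67 (-0.75). Sample 3 of the GFP- sort did not move 1 way: it was above both other GFP- samples in 29 members and below both in 12. It was highest by 0.83 in Gins2, 0.80 in Bub1b, a checkpoint kinase, 0.73 in Plk1 and 0.72 in Cenpa, and lowest in Ttk (-0.75), the spindle motor Kif11 (-0.67) and Bub1 (-0.60). In that sample 11 of 25 mitotic and 1 of 19 replication members lay more than 0.5 from the mean of samples 5 and 6. Shares of all probe sets were not counted for these places of sample 3, so they are not read as a trait of the members. Over all probe sets sample 3 correlated less with its group. In GFP+ cells the correlations were 0.983 and 0.982, against 0.994 between samples 5 and 6. In GFP- cells they were 0.977 and 0.978, against 0.995. The samples numbered 3 were also the lowest of their sort in the mean levels of the lists that follow, by larger or smaller gaps. The mean log2 level of the 8 cardiac muscle markers was 4.50 in GFP+ sample 3, below 5.52 and 5.39 in GFP+ samples 5 and 6, and 4.81 in GFP- sample 3, below 5.84 and 5.72 in GFP- samples 5 and 6. That of the 8 fibroblast markers was 6.39 in GFP+ sample 3, below 6.61 and 6.78 in GFP+ samples 5 and 6, and 5.48 in GFP- sample 3, below 5.93 and 6.16. For the immediate early and dissociation stress genes it was 6.43 in GFP+ sample 3, below 7.21 and 7.03. In GFP- sample 3 it was 6.41, below 6.73 and 6.57. Their part in the members' differences was not tested.

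Of the further genes 10 of 45 for replication were lower in GFP+ cells, among them Pola1 (-0.90), and 7 of 55 for mitosis, led by Melk (-0.71) and Racgap1 (-0.66), a cytokinesis protein. Of the 31 regulators 4 were lower, led by Mybl2 (-0.83) and Ccnf (-0.62), and none of the 12 CDK inhibitors and G1 cyclins with their kinases passed. Markers of other cell types differed between the sorts. All 8 endoderm and epithelial markers were lower in GFP+ cells, with log2 summed levels of 7.28 to 7.63 in GFP+ cells, against 9.79 to 9.93 in GFP- cells. Of 8 endothelial markers 3 were lower, with 7.42 to 7.85 in GFP+ cells, against 8.15 to 8.50 in GFP- cells, and 2 of 10 smooth muscle markers were higher, with 11.9 to 12.1 in GFP+ cells, against 10.9 to 11.5 in GFP- cells. The part of these cell types in the members' differences was not tested.

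The fourth comparison set day 13 GFP+ cells against GFP+ smooth muscle cells of the aorta. GFP+ cells were higher in 16 of 19 replication and 25 of 25 mitotic members, against 19.5% of all probe sets higher, and in none lower. The median log2 difference was 1.25 over the replication members and 2.97 over the mitotic members, against -0.07 over all probe sets. Growth in culture and tissue of origin differ together between these groups, and cannot be told apart. The arrays carry no detection calls, so a low aortic value is a signal that may not differ from background.

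Mitotic genes held the largest differences. Top2a had 7.66, 8.21 and 8.27 in day 13 GFP+ samples 3, 5 and 6, against 2.85, 2.94 and 3.73 in aortic samples 1, 2 and 3, and was 29.3-fold higher (4.87, SE 0.21, adjusted p = 5.17e-11, limma). Prc1, which bundles microtubules of the central spindle, had 6.84, 7.24 and 7.15 in GFP+ cells, against 2.53, 2.60 and 2.27 in aortic cells, and was 24.4-fold higher (4.61, SE 0.13, adjusted p = 5.43e-13, limma). The 2 groups lay far apart in both genes. Kif23, a motor of the central spindle, differed by 4.08, Ccna2, cyclin A2, by 3.94, Cdk1 by 3.80, Ndc80 by 3.77 and Plk1 by 3.44. Foxm1 had the smallest difference of the list, with 5.30, 5.26 and 5.71 in GFP+ cells, against 3.69, 4.05 and 4.68 in aortic cells, and was 2.44-fold higher (1.28, SE 0.21, adjusted p = 1.33e-04, limma). Its groups did not overlap either.

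Replication genes had a smaller median difference, and 3 of them did not pass. Mcm2 had 6.00, 6.49 and 6.62 in GFP+ cells, against 3.95, 3.75 and 3.97 in aortic cells, and was 5.57-fold higher (2.48, SE 0.14, adjusted p = 1.32e-09, limma). Rrm2 had 6.66, 6.86 and 7.02 in GFP+ cells, against 4.15, 4.76 and 4.40 in aortic cells, and was 5.32-fold higher (2.41, SE 0.15, adjusted p = 3.48e-09, limma). Both genes separated the groups in every sample. Orc1 had 3.65, 3.96 and 3.80 in GFP+ cells, against 3.47, 3.80 and 3.93 in aortic cells, with a difference of 0.07 (SE 0.15, adjusted p = 0.746, limma) and overlapping groups. Pcna, the sliding clamp, which also serves in DNA repair, had 9.05, 9.50 and 9.33 in GFP+ cells, against 9.22, 9.28 and 9.13 in aortic cells (0.09, adjusted p = 0.629, limma). Prim1 had 5.23, 5.84 and 5.99 in GFP+ cells, against 5.58, 4.64 and 5.21 in aortic cells (0.54, adjusted p = 0.0532, limma). These 3 did not pass, and in each the samples of the groups interleaved. The helicase subunits differed among themselves, with 2.48 for Mcm2, 2.09 for Mcm3, 2.02 for Mcm7, 1.28 for Mcm6, 1.25 for Mcm5 and 0.51 for Mcm4. Mcm4 had overlapping groups, and its call (adjusted p = 0.0198, limma) was lost under quantile or cyclic loess normalization, in a fit of the 2 groups alone, and without GFP+ sample 5 or 6 or aortic sample 1 or 3.

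Of the further replication genes 34 of 45 were higher in GFP+ cells, led by Dbf4, the activator of the origin-firing kinase Cdc7 (3.41), and Ticrr (2.24), and 3 were lower, among them Pole4 (-1.03) and Rpa1 (-0.49). Of the further mitotic genes 51 of 55 were higher, led by Ckap2 (4.22) and Ube2c, the ubiquitin conjugating enzyme of anaphase (4.08), and none was lower. Of the regulators 20 of 31 were higher, led by Cdc25c (2.64) and Ccnf (2.49), and 5 were lower, led by Myc (-2.04) and Rbl2 (-1.01). Among the CDK inhibitors and G1 cyclins with their kinases 5 of 12 were higher, led by Cdk4 (2.33) and Cdkn1a (1.82), and Cdkn2c (-0.74) was lower.

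Other lists moved with this comparison. All 11 immediate early and dissociation stress genes were lower in GFP+ cells, with log2 summed levels of 10.2 to 10.9 in GFP+ cells, against 13.9 to 14.1 in aortic cells. Of the smooth muscle markers 9 of 10 were lower in GFP+ cells, with 11.9 to 12.1, against 13.8 to 13.9 in aortic cells. Endothelial markers were lower in 7 of 8, with 7.42 to 7.85 in GFP+ cells, against 9.51 to 9.70 in aortic cells. Leukocyte markers were lower in 7 of 8, with 7.50 to 7.64 in GFP+ cells, against 7.81 to 8.57 in aortic cells, fibroblast markers were lower in 5 of 8 and higher in 1, and cardiac muscle markers were higher in 3 of 8 and lower in 1. Their part in the members' differences was not tested.

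The last comparisons set both day 13 sorts against undifferentiated iPSC, and share the day 0 samples with each other and with the first comparison. In GFP+ cells 18 of 19 replication and 25 of 25 mitotic members were lower, against 19.8% of all probe sets, with medians of -2.46 and -1.69. In GFP- cells 18 of 19 and 23 of 25 were lower, against 17.7% of all probe sets, with medians of -1.76 and -1.09. The members that did not pass were Rrm1 in GFP+ cells, and Rrm1, Mki67 and Foxm1 in GFP- cells. With the sample number as a block over the 12 cultured samples, Rrm1 passed in GFP+ cells and Mki67 and Foxm1 passed in GFP- cells. Deviations of same-numbered day 0 and day 13 samples correlated only between -0.091 and 0.079 over all probe sets, and no label pairs these samples. These calls therefore rest on a block without support in this comparison. All 10 pluripotency markers were lower in each sort, with log2 summed levels of 7.30 to 7.58 in GFP+ cells and 7.58 to 8.02 in GFP- cells, against 11.81 to 11.95 at day 0. Cardiac muscle markers had 9.70 to 9.92 in GFP+ cells (2 of 8 higher, 1 lower) and 9.32 to 10.1 in GFP- cells (4 of 8 higher, 1 lower), against 7.38 to 7.48 at day 0. Fibroblast markers had 11.4 to 11.9 in GFP+ cells (5 of 8 higher, 1 lower) and 10.2 to 11.1 in GFP- cells (4 of 8 higher, 1 lower), against 8.39 to 8.62 at day 0. The part of these lists in the members' differences was not tested.

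Pole had 4.46, 4.93 and 4.92 in GFP+ samples 3, 5 and 6, against 8.26, 8.06 and 7.99 in day 0 samples 3, 5 and 6, and was 10.1-fold lower (-3.33, SE 0.17, adjusted p = 4.67e-10, limma). Mcm5 had 5.63, 5.86 and 5.94 in GFP+ cells, against 9.05, 9.02 and 8.84 at day 0, and was 8.95-fold lower (-3.16, SE 0.15, adjusted p = 1.54e-10, limma). The groups of both genes were far apart. Rrm1 had 8.08, 8.13 and 8.09 in GFP+ cells, against 8.54, 8.44 and 8.41 at day 0 (-0.36, SE 0.14, adjusted p = 0.0508, limma). Its 3 GFP+ values lay below the day 0 values but the difference did not pass. In the mitotic list Bub1 had 5.33, 6.06 and 6.06 in GFP+ cells, against 8.62, 9.03 and 9.01 at day 0, and was 8.37-fold lower (-3.07, SE 0.22, adjusted p = 1.56e-08, limma). Ttk had 5.38, 5.99 and 5.99 in GFP+ cells, against 7.86, 8.30 and 8.27 at day 0, and was 5.11-fold lower (-2.35, SE 0.26, adjusted p = 2.44e-06, limma). In both checkpoint kinases the sample numbered 3 was the lowest of its group in each of these groups. Mki67 had 7.72, 8.37 and 8.58 in GFP+ cells, against 8.85, 9.32 and 9.35 at day 0, and was 1.93-fold lower (-0.95, SE 0.22, adjusted p = 0.00245, limma).

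In GFP- cells Gins1 had 4.69, 4.44 and 4.59, against 7.14, 6.83 and 6.78 at day 0, and was 5.08-fold lower (-2.35, SE 0.14, adjusted p = 2.67e-09, limma). Orc1 had 4.64, 4.65 and 4.37 in GFP- cells, against 6.77, 7.02 and 6.85 at day 0, and was 5.03-fold lower (-2.33, SE 0.15, adjusted p = 4.84e-09, limma). Every GFP- sample was below every day 0 sample in these genes. Rrm1 had 8.51, 8.12 and 8.17 in GFP- cells, against 8.54, 8.44 and 8.41 at day 0, with overlapping groups (-0.20, SE 0.14, adjusted p = 0.326, limma). Bub1 had 6.09, 6.68 and 6.70 in GFP- cells, against 8.62, 9.03 and 9.01 at day 0, and was 5.25-fold lower (-2.39, SE 0.22, adjusted p = 3.34e-07, limma). Ttk was 3.98-fold lower (-1.99, SE 0.26, adjusted p = 1.81e-05, limma). Mki67 had 8.60, 8.76 and 8.73 in GFP- cells, against 8.85, 9.32 and 9.35 at day 0, with no overlap and a difference of -0.47 that did not pass (SE 0.22, adjusted p = 0.12, limma). Foxm1 differed by -0.48 and did not pass.

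Against day 0 the regulator Mybl2 differed most among the 31 regulators, by -5.28 in GFP+ cells and -4.45 in GFP- cells, followed by Ccne1, cyclin E1, with -2.57 in GFP+ cells and -2.50 in GFP- cells. Of the further replication genes 43 of 45 were lower in GFP+ cells and 42 in GFP- cells, with Pola1 at -3.22 in GFP+ cells and -2.32 in GFP- cells, and Ticrr at -3.07 in GFP+ cells and -2.56 in GFP- cells. Of the further mitotic genes 52 of 55 were lower in GFP+ cells and 49 in GFP- cells, and Zwint was higher in both, by 0.68 in GFP+ cells and 0.90 in GFP- cells. Ccnd2, a D type cyclin, was higher by 3.31 in GFP+ cells and 2.50 in GFP- cells.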

How the data were processed

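Total RNA of 15 samples was measured on Affymetrix Mouse Gene 2.0 ST arrays, 1 array a sample. The authors deposited 1 value per probe set and array; per the submitters' processing notes the tools were RMA, affy (version 1.36.1) and R (version 2.15.1). That the values are log2 was read from the deposited table itself. The sources used here give no genome build for the probe sets, and no scan date was used, so batches of arrays were not tested.

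Groups and sample numbers came from the sample titles. Of the 25206 probe sets, 23740 were named from their Entrez number through RefSeq gene names. limma 3.58.1 in R 4.3.3 fitted a mean per group over all 15 samples (10 residual and 5.09 prior degrees of freedom), with eBayes and Benjamini-Hochberg adjustment over all probe sets; the threshold was 0.05, and no filter on level was used. The fit was tested on simulated data. SDs rest on 3 samples a group, whose number limits the precision. SEs come from the moderated spread of each probe set, which the 5 groups share. Alternatives were other fits, weights, scalings, filters, blocks and samples left out.

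Members and lists were chosen with earlier results of these data known. Values in every sample are given for the 2 members of each list with the largest difference in a comparison and the 1 with the smallest; a few others were added where they did not pass the test. Up to 2 risers and 2 fallers of each other pathway list are named. Whether equal sample numbers pair samples was checked by correlating deviations from group means. Over all probe sets each same-numbered pair of the day 13 sorts was over 0.1, as were samples 5 and 6 across numbers (0.278 and 0.345). The same-numbered correlations of other groups lay between -0.091 and 0.079. Over the 44 members alone, each same-numbered pair of day 0 with either day 13 sort was over 0.1 (0.136 to 0.406). Samples 5 and 6 of unequal number were over 0.1 there as well (0.108 to 0.326), so equal numbers were not singled out. Promoters and motifs came from the RefSeq table of GRCm38.p6, which held 35 of the 44 members. Printed proportions count a gene when any of its promoters matched. Counts of the further replication genes cover the whole list, and 1 gene that the naming rule chose from it is not reported here.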

Additional observations from a re-analysis of the deposited data

How the results depend on the processing

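All 44 members kept a lower level in day 13 GFP+ and GFP- cells than at day 5, and no called member changed sign under any alternative run. Requiring a log2 difference beyond 1 (limma's treat) left 10 replication and 2 mitotic calls for GFP- against day 5, 4 mitotic calls for GFP- against day 0, 5 replication calls for GFP+ against the aorta, and 0 of either list for day 5 against day 0 and for GFP+ against GFP-. Over all probe sets it left 1200 calls for day 5 against day 0, 1589 and 829 for GFP+ and GFP- against day 5, 31 for GFP+ against GFP-, 1716 against the aorta, and 2314 and 1746 for GFP+ and GFP- against day 0. For GFP+ against GFP-, with 12 replication, 6 mitotic and 1142 calls in all, a fit of those groups alone gave 6, 1 and 459, array weights gave 15 mitotic and 2945 in all, cyclic loess 2 mitotic, and probe sets above the median level 10 mitotic. The replicate block gave 13 mitotic calls over the 12 cultured samples, 9 as a random effect, and 11 mitotic and 2130 in all over the 6 day 13 samples, an alternative chosen after seeing the data, as was leaving out both samples numbered 3 (5 and 0 calls, and 934 in all). Leaving out 1 sample gave 6 to 11 replication, 1 to 6 mitotic and 653 to 1111 calls in all, with 729 without GFP- sample 5 and 653 without GFP+ sample 6. For day 5 against day 0, mitotic calls numbered 8 in a fit of the 2 groups and 7 with array weights. They numbered 1 to 3 with 1 sample left out, and 9 with the block over the 12 cultured samples. Same-numbered day 0 and day 5 samples correlated only between -0.014 and 0.068 over all probe sets, so that block has no support in this comparison. Counts over all probe sets are not given for these settings, so no rise above the background is read from them. Array weights gave 10102 calls for GFP- against day 5. Differences near 0 changed sign: that of Aurkb at day 5 against day 0 became 0.085 under median centring and ranged between -0.081 and 0.065 with 1 sample left out, that of Gins1 became -0.080 under repeated quantile normalization and -0.029 under cyclic loess and ranged between -0.061 and 0.116 with 1 sample left out, and that of Orc1 against the aorta ranged between -0.065 and 0.168 with 1 sample left out. Apart from settings built to use fewer samples or probe sets, the cause was not tested. Normalizing again moved a sample's median by up to 0.11 (median centring or quantiles) or 0.15 (cyclic loess). Without detection calls, low aortic values have no known distance from background. With the block, Rrm1 (GFP+ against day 0) and Mki67 and Foxm1 (GFP- against day 0) passed, and no other call of these members outside GFP+ against GFP- and day 5 against day 0 changed. Same-numbered day 0 and day 13 samples did not correlate over 0.1 over all probe sets.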
